A study of Mus musculus with 12 samples.

Results

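The miR-26 and miR-101 families were followed in small RNA from circulating extracellular vesicles of mice whose bile duct had been tied. The members were chosen by name: 8 of the 1915 mouse microRNA names in the counts table carry a miR-26 or miR-101 name on the list used here, and they make 7 distinct measurements, because miR-101c repeats the sequence of miR-101a-3p. Male C57BL/6J mice had the bile duct ligated (BDL) or were sham-operated, and plasma was taken 8 days later, with 6 libraries in each group. Both groups are wild-type mice of 1 inbred strain with no transgene named in the labels. The vesicles were precipitated from 250 µl of plasma with a polymer reagent, so the cells that released them are not known, and fewer vesicles of a kind cannot be told apart from fewer copies of a microRNA in each vesicle. A label gives the tissue as liver, but the site label and the protocol describe plasma vesicles, and red cell microRNAs (miR-451a, both arms of miR-144, miR-486a-5p and miR-16-5p) took 37.0 to 40.9% of counts in the sham libraries against 0.432 to 2.51% for the hepatocyte list (both arms of miR-122, miR-192-5p and miR-194-5p). In the BDL libraries these shares were 17.0 to 36.0% and 7.17 to 33.9%. miR-486b-5p had the same mean level and fold change as miR-486a-5p, so the totals appear to hold these reads under both names. The shares are therefore of summed counts, not of distinct reads, and the red cell list counts only miR-486a-5p.

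A microRNA guides an Argonaute protein to messenger RNAs that pair with its seed, the bases 2 to 8 at its 5′ end, and the bound messages are repressed. The miR-26 guides come from introns of the Ctdsp genes, which encode small phosphatases that act on the carboxy-terminal domain of RNA polymerase II, and they are abundant in liver and many other differentiated tissues. The miR-101 guides are known as repressors of Ezh2, the histone methyltransferase of Polycomb repressive complex 2, and miR-26a is reported to repress it too. Both families are described as growth-restraining in liver and are often low in liver tumours.

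The mature sequences are shown because the seeds sort the names into groups and explain which names cannot be separated. They are from RefSeq on build GRCm38.p6, all 8 names matched, and capitals mark bases 2 to 8.
mmu-miR-26a-5p: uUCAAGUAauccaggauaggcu
mmu-miR-26b-5p: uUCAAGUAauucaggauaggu
mmu-miR-26a-2-3p: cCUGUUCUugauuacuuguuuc
mmu-miR-26b-3p: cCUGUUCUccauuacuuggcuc
mmu-miR-101a-3p: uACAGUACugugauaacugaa
mmu-miR-101c: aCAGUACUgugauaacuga
mmu-miR-101b-3p: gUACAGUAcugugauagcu
mmu-miR-101a-5p: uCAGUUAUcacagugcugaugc

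The miR-26 guides share the seed UCAAGUA and differ from each other, counted from the 5′ end over 21 bases, by C11U and C21U (miR-26a-5p first). Their passenger strands, miR-26a-2-3p and miR-26b-3p, share the seed CUGUUCU. miR-101c is bases 2 to 20 of miR-101a-3p, so the whole of its sequence lies within the longer name. miR-101b-3p is listed with 1 extra base at its 5′ end: its bases from 2 onward match the first 15 bases of miR-101a-3p, which moves the listed seed to UACAGUA.

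miR-26a-5p is made from 2 hairpins, Mir26a-1 on chromosome 9 (119031796 to 119031885, plus strand, intron of Ctdspl) and Mir26a-2 on chromosome 10 (126995530 to 126995613, plus strand, intron of Ctdsp2, with 1 base overlapping an exon). Mir26b lies on chromosome 1 (74394310 to 74394394, plus strand, intron of Ctdsp1). Mir101a lies on chromosome 4 (101346945 to 101347027, minus strand, in an exon of the lincRNA E130102H24Rik), and Mir101b on chromosome 19 (29135279 to 29135375, plus strand, intron of Rcl1, which takes part in ribosomal RNA processing). The mature miR-101c is placed on chromosome 9 (3038680 to 3038698, minus strand) outside other annotated genes. Counts of miR-26a-5p cannot be divided between its hairpins.

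The Ezh2 messenger shows what these seeds pair with. In the 402 bases after the stop codon of the Ezh2-214 transcript (GENCODE M21, GRCm38), the 7 bases TACTTGA that pair with the miR-26 seed occur 1 time and the 7 bases GTACTGT that pair with the miR-101a-3p seed occur 2 times, read on the transcript strand. Capitals mark these bases.
miR-26 match, chr6:47530286-47530308, minus strand: aatttgaataaagaaTACTTGAa
miR-101 match, chr6:47530475-47530497, minus strand: cttcaggaaccttgaGTACTGTg
miR-101 match, chr6:47530420-47530442, minus strand: ttctgaatttgcaaaGTACTGTa
The first 402 bases of 3′ untranslated sequence held TACTTGA in 2.85% and GTACTGT in 2.71% of 15295 genes with at least that length. These are letter matches, and no Ezh2 messenger was measured in these libraries.

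Mouse counts per library ran from 121003 to 3506914 in BDL and from 659302 to 2684636 in sham. The sample codes end in 24 or 26, of unstated meaning, with 3 libraries of each ending per group, and the BDL libraries with ending 26 (BDL 2, 4 and 6) are 3 of the 4 shallowest. The codes also begin with a digit that 2 libraries of a group share (BDL 1 and 2, 3 and 4, 5 and 6, and likewise in sham), and whether such libraries come from the same animal is not stated. If they do, each group holds 3 independent samples, and the p-values over 6 against 6 libraries are too small. Levels are in CPM (counts per 1000000 after TMM scaling). Library totals include both miR-486a-5p and miR-486b-5p, each with a mean of 278640 CPM in BDL and 392088 CPM in sham. Depths and CPM are therefore not of distinct reads. BDL 4 is the shallowest library, and a count of 0 there allows up to 23.98 CPM.

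The miR-26 guides were lower in BDL plasma vesicles. miR-26a-5p, the most abundant member, averaged 497.3 ± 273.5 CPM in BDL and 1788 ± 477.7 CPM in sham (SD, n = 6 each), and by mean level it stood 35th among all names in sham and 64th in BDL. Its levels in BDL libraries 1 to 6 were 794.3, 325.3, 786.1, 167.8, 629.4 and 280.8 CPM. In sham libraries 1 to 6 they were 2275, 2183, 1062, 1516, 2111 and 1583 CPM. Every BDL library lay below every sham library, which held for 9.38% of the 341 names tested, and the 3 lowest BDL values were the 3 libraries ending in 26.

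The fold change of miR-26a-5p was -1.83 ± 0.36 on the log2 scale (SE; BDL minus sham; adjusted p = 7.72e-04, edgeR quasi-likelihood test), a level 3.56-fold lower in BDL. It was lower within each code ending, at -1.27 ± 0.31 in libraries ending in 24 (adjusted p = 0.00938) and -2.81 ± 0.38 in those ending in 26 (adjusted p = 1.26e-04, edgeR, n = 3 per group), where 12.9% and 18.1% of all names tested were lower. The difference between the endings was -1.44 ± 0.48 (adjusted p = 0.0868, edgeR interaction term), which did not pass the threshold (2.35% of names passed it). Without BDL 2, 4 and 6 the fold change was -1.26 ± 0.28 (adjusted p = 0.00235, edgeR), so the call remained. These libraries are shallow and also end in 26, which cannot be told apart here, and the change in size was not tested.

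miR-26b-5p, from the Ctdsp1 intron, was present at a far lower level. BDL libraries 1 to 6 held 84, 3, 78, 0, 25 and 4 reads of it, which are 17.5, 5.39, 29.2, 0, 15.9 and 7.34 CPM. Sham libraries 1 to 6 held 184, 175, 64, 30, 190 and 24 reads, or 63.7, 71.2, 44.6, 28.8, 95.7 and 36.6 CPM. Only BDL 3 reached the sham range, just above sham 4, and the 0 in BDL 4 has an upper limit that itself stays below the lowest sham level. miR-26b-5p fell by 1.92 ± 0.45 on the log2 scale (SE; adjusted p = 0.00275, edgeR), with -1.67 ± 0.40 in libraries ending in 24 and -3.11 ± 0.69 in those ending in 26 (adjusted p = 0.00936 and 0.00328, edgeR). The difference between the endings was -1.35 ± 0.81 (adjusted p = 0.340, edgeR), and in BDL libraries ending in 26 it rests on 0 to 4 counts.

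**Figure D1:**
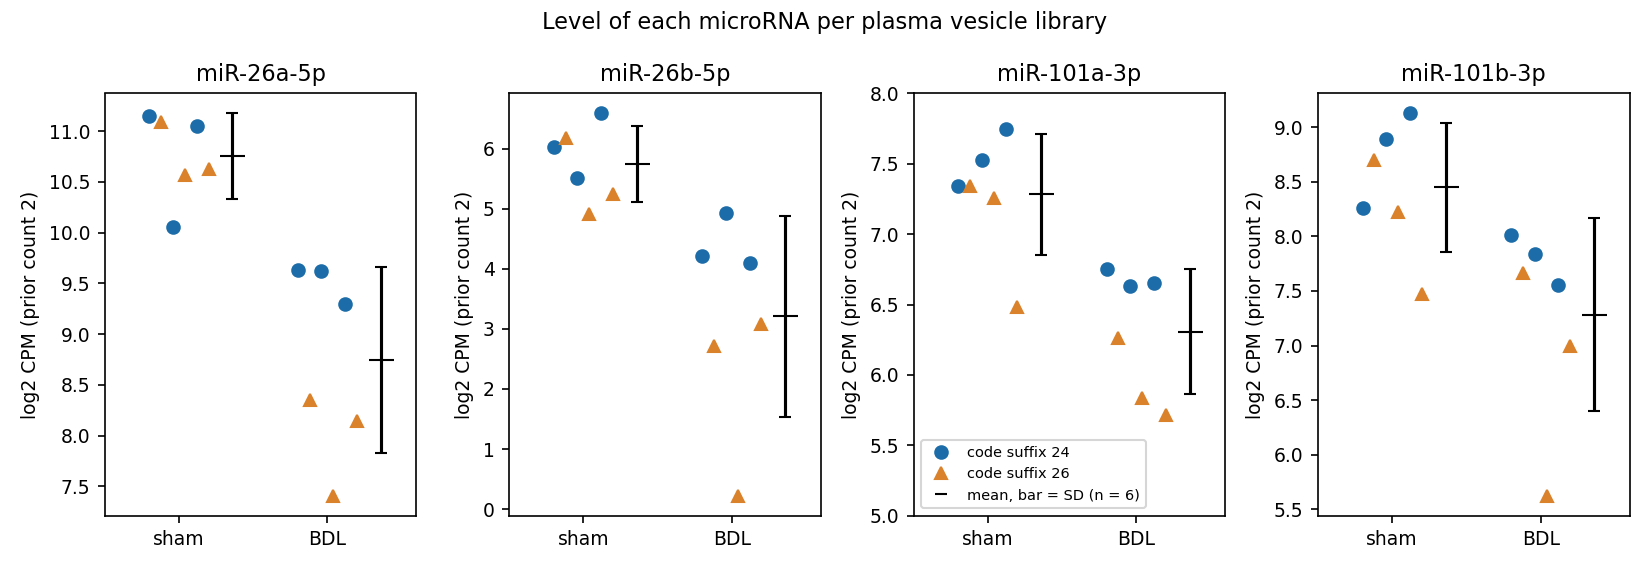
Level of miR-26a-5p, miR-26b-5p, miR-101a-3p and miR-101b-3p in each library, as log2 CPM with a prior count of 2 (vertical axis), for 6 sham and 6 BDL libraries, with marker shape giving the code suffix and black bars the mean and SD. The miR-26a-5p groups are separate, while the other 3 names overlap in single libraries, and BDL libraries with suffix 26 are lowest for the miR-26 guides.

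The miR-101 guides were lower as well, by a smaller amount. miR-101a-3p had 106.8, 75.5, 98.0, 55.9, 99.5 and 51.4 CPM in BDL libraries 1 to 6 and 161.4, 161.4, 183.3, 151.7, 214.2 and 88.4 CPM in sham libraries 1 to 6. The groups overlapped only through sham 6, the shallowest sham library with 58 counts, which lay below BDL 1, 3 and 5. miR-101a-3p fell by 0.95 ± 0.29 on the log2 scale (SE; adjusted p = 0.0147, edgeR), a level 1.93-fold lower, with -0.85 ± 0.27 and -1.19 ± 0.44 in the libraries ending in 24 and 26 (adjusted p = 0.0318 and 0.0456).

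miR-101c, the shorter copy of the same sequence, exceeded miR-101a-3p by 0 to 3 counts in each library and had equal counts in 4 of 12, with totals of 2788 and 2775. Its fold change of -0.93 ± 0.29 (adjusted p = 0.0148, edgeR) is therefore the same measurement and is not counted again.

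miR-101b-3p, from the Rcl1 intron, had more counts than miR-101a-3p in every library except BDL 4. Its levels were 257.0, 201.3, 228.2, 48.0, 186.8 and 126.6 CPM in BDL libraries 1 to 6. In sham libraries 1 to 6 they were 305.5, 415.2, 473.2, 298.5, 559.9 and 176.8 CPM. Here too sham 6 fell among the BDL values, and the other 5 sham libraries were above every BDL library. The fold change was -1.06 ± 0.36 (SE; adjusted p = 0.0234, edgeR), with -0.96 ± 0.29 in libraries ending in 24 (adjusted p = 0.0263) and -1.27 ± 0.49 in those ending in 26 (adjusted p = 0.0570). Without BDL 6 or sham 5 the call of miR-101b-3p was lost, at -0.96 and -0.98 (adjusted p = 0.0568 and 0.0650, edgeR), in fits where 15.1% and 15.5% of all names were lower.

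In all, 4 of the 7 distinct names, the guides, passed the filter on low counts, and each of these 4 was lower in BDL. Of the 341 names tested 18.2% were lower and 24.6% higher. miR-26b-5p had enough counts in every sham library but only 3, 0 and 4 reads in BDL 2, 4 and 6. Its passing of the filter thus rests on sham, where it is higher. With the 2 libraries of each digit summed, 3 against 3, the 4 guides had -1.40, -1.66, -0.83 and -0.91 for miR-26a-5p, miR-26b-5p, miR-101a-3p and miR-101b-3p (adjusted p = 0.00217, 0.00608, 0.0109 and 0.00832, edgeR), where 17.1% of all names were lower. Each BDL sum comes mostly from its library ending in 24 (3506914 against 623117 counts, 2278626 against 121003 and 1635616 against 666310). This fit therefore gives little weight to BDL 2, 4 and 6. The miR-101 calls were less firm than those of miR-26: with total counts in place of TMM scaling miR-101a-3p had -0.83 (adjusted p = 0.0779) and miR-101b-3p -0.94 (adjusted p = 0.0807), and without BDL 2, 4 and 6 they had -0.63 and -0.71 (adjusted p = 0.0951 and 0.0927, edgeR). Among all names 13.5% and 15.4% were lower in these settings, and 3.18% when names of low count were kept, where the miR-101 calls were lost too. The miR-26 guides stayed lower and past the threshold in each of them.

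Low GC content moved with the result. The 4 guides have 33.3 to 42.1% GC, within the GC-poorest 100 of the 290 tested names that have a RefSeq sequence (27.3 to 45.5% GC), where 36 names were lower, against 2 of the GC-richest 96 (2.08%). With a per-library adjustment for GC content, chosen after the data were seen, miR-26a-5p had -1.27 ± 0.26 (adjusted p = 0.00128) and miR-26b-5p -0.96 ± 0.35 (adjusted p = 0.0410, edgeR). In the same fit miR-101a-3p had 0.13 ± 0.23 (adjusted p = 0.682) and miR-101b-3p -0.52 ± 0.27 (adjusted p = 0.142, edgeR), so neither miR-101 call remained. miR-101c, with nearly the same counts but listed at 36.8% GC against 33.3% for miR-101a-3p, had -0.05 ± 0.23 (adjusted p = 0.877, edgeR). The sign thus differed between 2 listings of nearly the same counts, and both values lay within their SE of 0. Of all names in that fit 15.5% were lower.

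**Figure D2:**
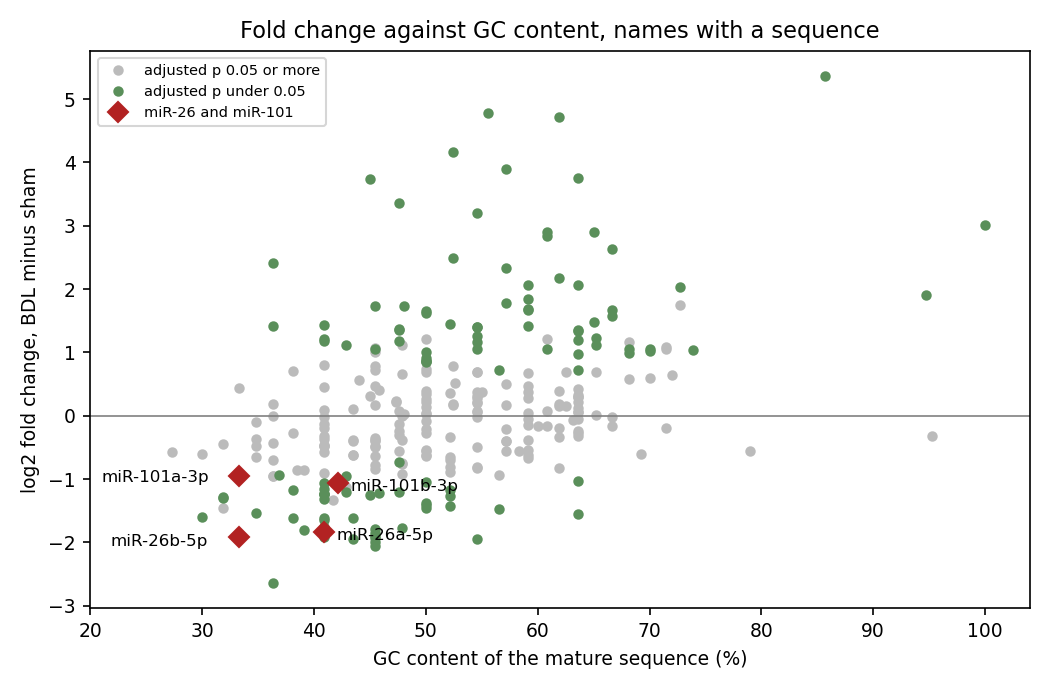
Log2 fold change (vertical axis, BDL minus sham) against the GC percent of the mature sequence (horizontal axis) for the 290 tested names with a RefSeq sequence, with green points past the adjusted p threshold and red diamonds for the miR-26 and miR-101 guides. The guides lie at 33.3 to 42.1% GC, in the part of the plot where most called names are below 0.

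**Figure D3:**
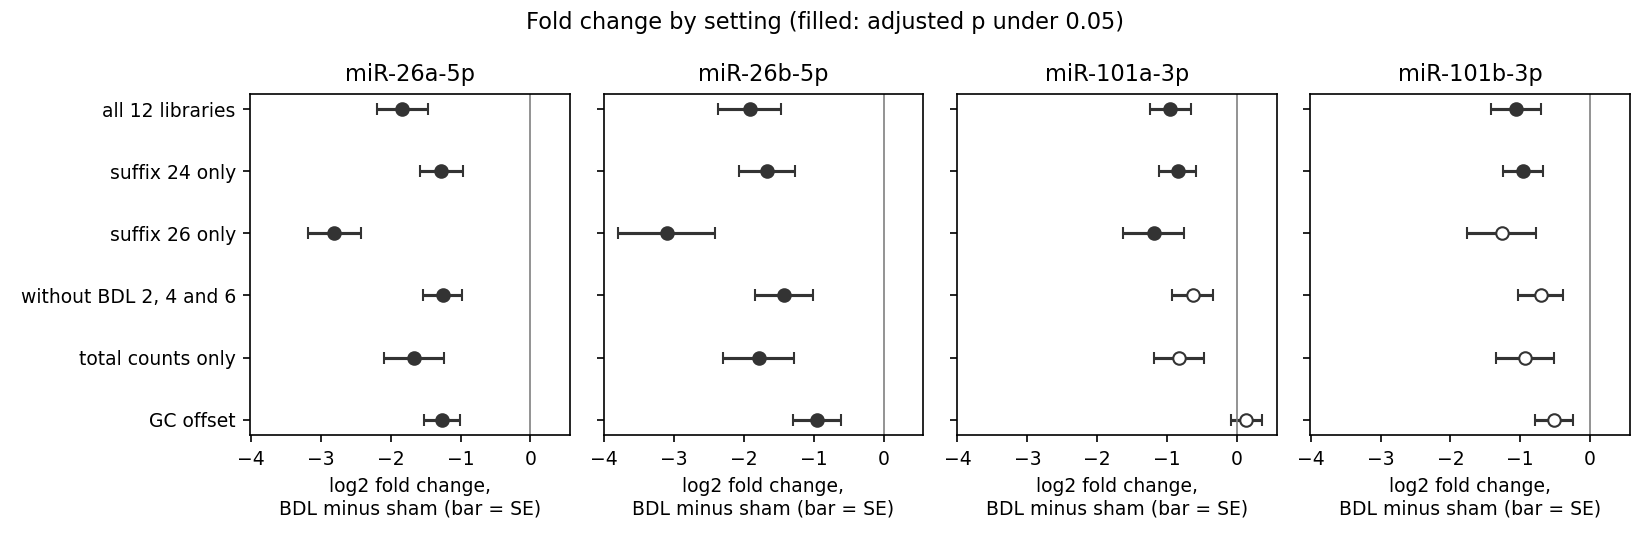
Log2 fold change with its SE (horizontal axis) of the 4 guides under 6 settings (vertical axis), filled where the adjusted p is under 0.05. The miR-26 points are filled and below 0 in all 6 settings. The miR-101 points are open without the shallow BDL libraries, with total counts and with the GC adjustment. With the GC adjustment miR-101a-3p is at 0.13, within its SE of 0.

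Ratios of counts within a library do not depend on scaling between libraries, and 6 were compared with a two-sided exact permutation test. The family members kept close to each other. The log2 ratio of miR-26a-5p to miR-26b-5p ran from 4.74 to 5.70 in BDL and from 4.46 to 5.69 in sham, and differed by 0.25 ± 0.24 (SE, n = 6 each; exact permutation p = 0.303, adjusted 0.364 over 6 ratios). miR-101a-3p to miR-101b-3p differed by 0.19 ± 0.26 on the same scale (n = 6 each; exact permutation p = 0.658, adjusted 0.658), with linear ratios of 0.378 to 1.15 in BDL and 0.383 to 0.529 in sham. Neither difference passed the test, which does not show that the ratios are equal.

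Between the families the ratio shifted. miR-26a-5p outnumbered miR-101a-3p by 7.43, 4.27, 8.01, 2.87, 6.31 and 5.39 times in BDL libraries 1 to 6 and by 14.1, 13.5, 5.79, 9.97, 9.85 and 17.8 times in sham libraries 1 to 6. The groups overlapped only through sham 3, which lay below BDL 1, 3 and 5. The log2 ratio was 2.43 ± 0.55 in BDL and 3.48 ± 0.57 in sham (SD), a difference of -1.05 ± 0.32 (SE, n = 6 each; exact permutation p = 0.0130, adjusted 0.0390). The difference was -0.37 in libraries ending in 24 and -1.73 in those ending in 26, where 3 against 3 libraries cannot give an exact p under 0.1, and leaving out 1 library ended the call for 9 of 12 libraries (adjusted p up to 0.0779). With the libraries of each code digit summed the difference was -0.55, again 3 against 3 and so without a call.

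**Figure D4:**
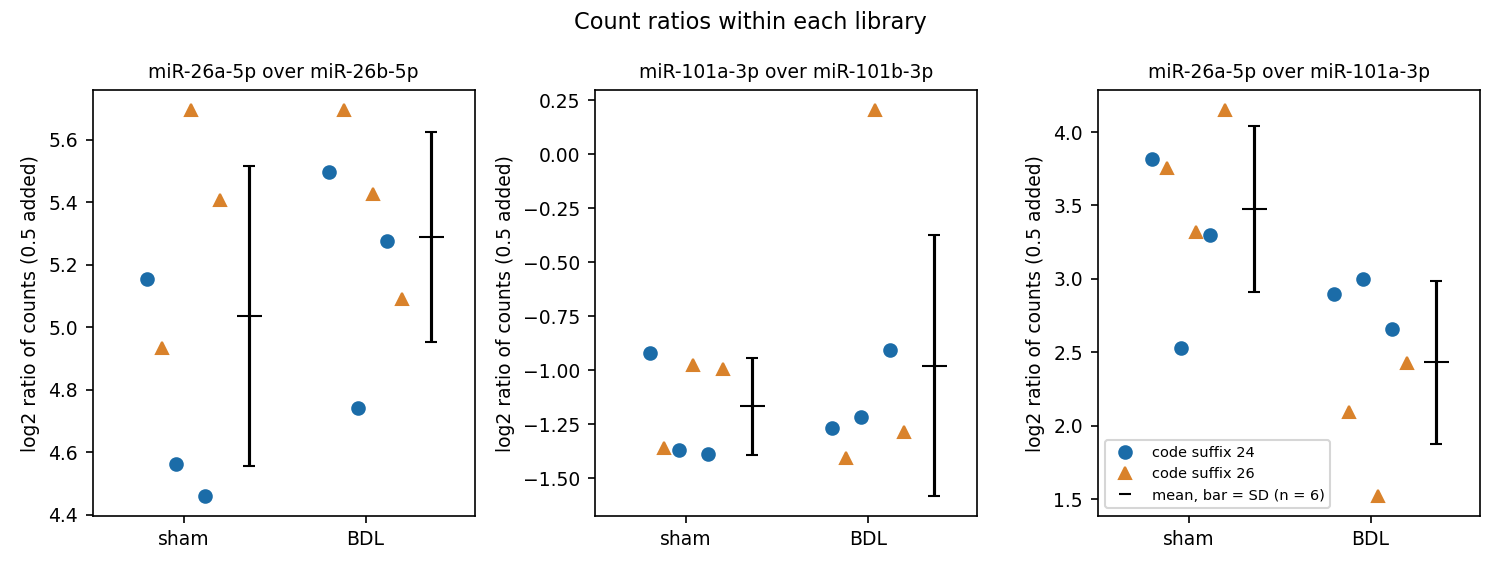
Log2 ratio of counts with 0.5 added (vertical axis) for 3 pairs of guides in each sham and BDL library, marker shape giving the code suffix and black bars the mean and SD. Within a family the groups lie over each other, with BDL 4 alone high for miR-101a-3p over miR-101b-3p, and miR-26a-5p over miR-101a-3p is 2.87 to 8.01 in BDL against 5.79 to 17.8 in sham on the linear scale.

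The passenger strands, which are usually discarded when the guide is loaded, were at the edge of detection and none passed the filter on low counts. Library by library in the order 1 to 6, miR-26b-3p gave 5, 0, 1, 0, 0 and 0 reads in BDL and 3, 5, 2, 1, 3 and 0 in sham. In the same order miR-26a-2-3p gave 6, 0, 2, 0, 2 and 0 reads in BDL and 0, 7, 0, 1, 0 and 0 in sham. miR-101a-5p had 3 counts in all, 1 in BDL 1 and 2 in sham 2. A difference between the groups was not detectable for these names at this depth.

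Relative to its guide, miR-26b-3p was the best represented passenger strand. Counts pooled over a group gave it 3% of both arms in BDL (6 of 200; exact Clopper-Pearson 95% interval 1.11 to 6.42%) and 2.06% in sham (14 of 681; 1.13 to 3.43%). miR-26a-2-3p took 0.138% in BDL (10 of 7270; 0.0660 to 0.253%) and 0.0395% in sham (8 of 20278; 0.0170 to 0.0777%), where the guide count includes the product of the other hairpin. miR-101a-5p took 0.0991% in BDL (1 of 1009; 0.00251 to 0.551%) and 0.113% in sham (2 of 1769; 0.0137 to 0.408%). The intervals of the groups overlap for each strand, and they cover counting error only. The per-library ratio of miR-26a-2-3p to its guide differed by 3.18 on the log2 scale (n = 6 each; exact permutation p = 0.00433, adjusted 0.0260), but 7 of 12 libraries had 0 counts of the passenger strand, so the added 0.5 sets their value, and over the 5 libraries with counts the difference was 0.67. The other passenger ratios differed by 1.64 for miR-26b-3p and 1.54 for miR-101a-5p (n = 6 each; exact permutation p = 0.0801 and 0.134, adjusted 0.160 and 0.201).

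Other microRNAs reported to repress Ezh2 did not move 1 way. Of 9 listed, 6 could be tested. Of these, 2 rose, 1 fell and 3 missed the threshold, where 24.6% of all names were higher and 18.2% lower, with a median log2 fold change of -0.49 against 0.03 over all names tested. miR-98-5p, a let-7 relative, fell by 1.28 ± 0.37 (adjusted p = 0.0118), and let-7a-5p and let-7b-5p had -0.70 ± 0.28 and -0.35 ± 0.20 (adjusted p = 0.0573 and 0.162, edgeR). miR-214-3p, known from muscle and stellate cells, rose by 1.69 ± 0.29 (adjusted p = 3.37e-04), and miR-30d-5p rose by 0.87 ± 0.26 (adjusted p = 0.0118, edgeR). miR-25-3p had -0.63 ± 0.35 (adjusted p = 0.160, edgeR). miR-124-3p, miR-138-5p and miR-217-5p, with 8, 21 and 23 counts in all libraries, were not tested.

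**Figure D5:**
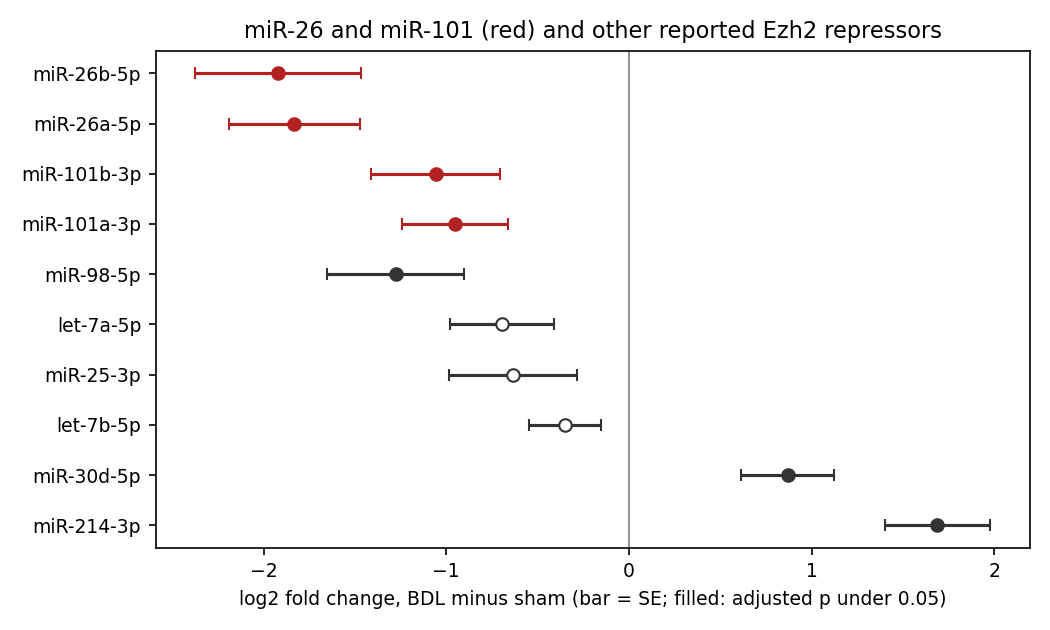
Log2 fold change with its SE (horizontal axis, BDL minus sham) of the miR-26 and miR-101 guides in red and of 6 other reported repressors of Ezh2 in black, filled where the adjusted p is under 0.05. The 4 guides run from -1.92 to -0.95, and the others from -1.28 for miR-98-5p to 1.69 for miR-214-3p.

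Few other mouse microRNAs in the RefSeq table share these seeds. No name outside the families has the seed of a miR-26 or miR-101 guide. miR-144-3p, a red cell microRNA processed beside miR-451a, shares bases 2 to 7 with miR-101a-3p and differs at base 8.
miR-144-3p: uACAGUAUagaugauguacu
Its level was 12.6 ± 14.5 CPM in BDL and 22.4 ± 10.8 CPM in sham (SD, n = 6 each), with a fold change of -0.60 ± 0.58 (SE; adjusted p = 0.437, edgeR). miR-6371, which shares bases 2 to 7 with miR-26a-5p, had 3 counts in all, and miR-7039-3p and miR-6932-3p, which share the passenger seed CUGUUCU, had 0.

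Some markers of blood and muscle cells were lower in BDL too, read against 18.2% of all names lower and 24.6% higher. Of the 5 red cell names 4 were tested and 2 were lower, and their summed level was 124096 to 377426 CPM in BDL and 356106 to 552283 CPM in sham, ranges that overlap. The 3 names of the platelet and megakaryocyte list (miR-223-3p and both arms of miR-126a) summed to 631.4 to 2718 CPM in BDL and 3195 to 8903 CPM in sham. The 2 of 3 that were lower are the arms of miR-126a, which is also an endothelial microRNA, so their fall does not single out platelets. Most of this sum was miR-126a-3p, with means of 1433 CPM in BDL and 4982 CPM in sham. The 4 leukocyte names summed to 533.7 to 2114 CPM in BDL and 2785 to 6328 CPM in sham, with 3 of 4 lower, among them miR-150-5p of mature lymphocytes. The 4 striated muscle names summed to 639.4 to 1738 CPM in BDL and 1144 to 2121 CPM in sham, ranges that overlap, with 3 of 4 lower. The markers that did not pass were miR-486a-5p, miR-144-3p, miR-223-3p, miR-155-5p and miR-133a-3p (adjusted p = 0.162, 0.437, 0.362, 0.873 and 0.602, edgeR). Of the 4 hepatocyte names 3 were tested and 2 were higher, summing to 74747 to 327680 CPM in BDL and 4013 to 25209 CPM in sham; miR-122-3p was at 0 in every sham library. The part of these cell types in the lower miR-26 and miR-101 levels was not tested.

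The members also varied together from library to library within a group. After the group means were taken out, the log2 CPM of miR-26a-5p and miR-26b-5p had a Pearson correlation of 0.89 over the 12 libraries, that of miR-101a-3p and miR-101b-3p 0.83, and that of miR-26a-5p and miR-101a-3p 0.64. The names most like miR-26a-5p among 336 others were miR-30c-5p (0.94), miR-700-3p (0.87) and miR-142a-3p (0.87). Those most like miR-101a-3p were miR-21a-5p (0.94), miR-93-5p (0.93) and miR-20a-5p (0.88). Spearman values for these 6 pairs ran from 0.84 to 0.97. These values describe 12 libraries that also share their depth and code ending. The fold changes of these 6 names differed: miR-142a-3p, miR-93-5p and miR-20a-5p fell by 1.54, 1.42 and 1.81 (adjusted p = 0.0167, 0.00929 and 0.00601, edgeR). miR-30c-5p had -0.40, miR-700-3p 1.06 and miR-21a-5p 0.00 (adjusted p = 0.492, 0.112 and 1.00, edgeR).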

How the data were processed

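The deposited table gives whole-number read counts per microRNA name, with no normalisation by the authors that its values show. Per the labels' protocols, small RNA libraries were made from 40 ng of vesicle RNA with 15 PCR cycles and no molecular identifiers are described, so intervals cover counting error only. Per the submitters' processing notes, cutadapt and STAR were used; their versions, the genome build and the annotation were not given in the sources used here. Names of other species (67) were left out. Nothing in the labels says that each library is a separate animal, so p-values measure the spread between these libraries, which may be technical.

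Counts were tested with edgeR 4.0.16 (R 4.3.3) by its quasi-likelihood F test, after TMM scaling and edgeR's own removal of names with few counts. Adjusted p-values (Benjamini-Hochberg) cover the 341 names left, and those under 0.05 passed. The SE is the fold change over the square root of F. limma 3.58.1, DESeq2 1.42.0 and other settings served as alternatives. The GC adjustment was a loess offset (span 0.9) per library. Ratios had 0.5 added to each count and were tested with scipy 1.17.1. All 8 members are named, then a list of reported Ezh2 repressors, names that share a seed, the 3 names most like miR-26a-5p and miR-101a-3p, and cell type markers. The members and lists were chosen with earlier results of these data known. Hairpin positions are from RefSeq, with gene annotation from GENCODE M21, both on GRCm38, which need not be the authors' build. The fits were tested on simulated data. There the test called 29 of 29 names with a true log2 fold change of 2, in either direction, and 8 of 22 with 1. Of 305 unchanged names it called 1. The simulation gave every name the same spread between libraries, treated the libraries as independent and held no GC trend or effect of the code ending. Its rates therefore need not hold for these data. In that simulation changes near the size of the miR-101 falls were often missed.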

Additional observations from a re-analysis of the deposited data

Results flagged for a closer look

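A single value stood apart from its group among 16 groups of 6 values examined, a test that chance alone passes in about 1 of 20 groups. The 16 groups are not independent, since they hold miR-101c beside miR-101a-3p and ratios of the same counts. The log2 ratio of miR-101a-3p to miR-101b-3p was 0.2065 in BDL 4, against -1.40 to -0.91 in the other 5 BDL libraries. BDL 4 is the shallowest library, and the ratio there rests on 7 counts of miR-101a-3p and 6 of miR-101b-3p. Without BDL 4 the difference between the groups in this ratio was -0.05 in place of 0.19.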

How the results depend on the processing

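Of the 29 other settings, miR-26a-5p and miR-26b-5p stayed lower and past the threshold in each, from -2.81 to -1.26 and from -3.11 to -0.96. The number of distinct names lower was 4 and became 2 without BDL 2, 4 and 6, with library totals as the scaling, without the count filter, and with the GC adjustment alone or with the replicate block; it was 3 to 4 when 1 library was left out. With miR-122-5p and the 5p strands of miR-486a and miR-486b left out of the library sizes, the number stayed at 4. The calls lost were those of miR-101. With total counts only miR-101a-3p, miR-101b-3p and miR-101c had -0.83, -0.94 and -0.81. With no count filter, where 1731 names were tested, they had -1.02, -1.12 and -1.01. Without BDL 2, 4 and 6 they had -0.63, -0.71 and -0.63. With the GC adjustment they had 0.13, -0.52 and -0.0504, and after adding the replicate block to it 0.15, -0.51 and -0.0279. In libraries ending in 26 miR-101b-3p had -1.27 and miR-101c -1.13. Leaving out 1 library gave -1.29 to -0.93 for miR-101b-3p. The causes were not tested.

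The ratio of miR-26a-5p to miR-101a-3p had a difference of -1.03 with no pseudocount (adjusted p = 0.0649), -0.37 and -1.73 in libraries ending in 24 and 26, -1.05 with the sample number as a block (adjusted p = 0.125) and -1.24 to -0.86 with 1 library left out. That of miR-26a-2-3p to miR-26a-5p was 0.67 with no pseudocount, 3.18 with the block (adjusted p = 0.0938) and 2.61 to 3.58 with 1 library left out. The block setting is a sign-flip test over 6 pairs. After adjustment over 6 ratios its smallest possible p passes only if several ratios reach it, so a call lost there says little. The sample numbers gave correlations over 0.1 in 2 of 6 number pairs (0.311 and 0.296), and 2 of 6 BDL libraries correlated best with their own number. These few values do not settle whether the numbers pair animals. Libraries that share a code digit had correlations from -0.557 to -0.108. Each such pair joins a library ending in 24 with 1 ending in 26, so this does not show whether they share an animal. With the sample number block alone the number of names lower stayed at 4. DESeq2 size factors moved the median fold change of all names by -0.136. The settings with the GC adjustment, without BDL 2, 4 and 6 or without miR-101c were chosen after the data were seen. Depth limits the passenger strands and miR-26b-5p in BDL 2, 4 and 6.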
